A study of Mus musculus with 8 samples.

Results

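Astrocytes express a set of housekeeping genes for glutamate uptake, water and potassium balance and lipid supply, and a separate set that they switch on when they become reactive. Both sets were compared here between wild-type mice and mice short of the neuronal sodium channel NaV1.2. The members were 40 listed astrocyte genes, of the 54446 genes in the deposited count table. They were sorted by their known roles into 23 homeostatic genes, 10 reactive genes and 7 other astrocyte-expressed genes whose side is not settled. A row with counts was found for 39 of them. The name Ntsr2l matched no row, and the neurotensin receptor gene Ntsr2 was treated as a separate gene. The filter on low counts passed 37 members: 22 homeostatic, 8 reactive and 7 other. Lcn2 and Steap4, both reactive, did not reach it.

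In the resting brain, astrocytes clear synaptic glutamate with membrane transporters and turn it into glutamine. Their endfeet on blood vessels carry water and potassium channels, and gap junctions couple neighbouring cells. After injury or inflammation, astrocytes become reactive: they build up intermediate filaments and make acute-phase and cytokine-response proteins. Several of these genes are not exclusive to astrocytes. Ceruloplasmin, the cystatin gene Cst3, apolipoprotein E, S1pr1 and Sparc are also expressed by choroid plexus, microglia or blood vessel cells.

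The series held 4 wild-type samples (WT replicates 1 to 4) and 4 Scn2agt/gt samples (HOM replicates 1 to 4), which carry a gene trap in both copies of Scn2a, the gene of NaV1.2. The mice were adult littermates bred from Scn2aWT/gt parents, their strain is given as C75BL6, and no drug treatment is named. Whether the numbered samples are single mice or pools, and the brain region, were not given in the sources used here. The p-values therefore measure sample spread that may be technical. Library totals ran from 27993412 to 37538988 counts. Scn2a stood between 371 and 477 CPM (counts relative to the TMM-scaled library total) in WT and between 112 and 147 CPM in HOM. Genes of the Y chromosome held 2 counts in HOM replicate 4 and 4452 to 5984 in the others. By these counts HOM replicate 4 was female and every other library held RNA of males. Sex was thus not balanced between the genotypes, and its part in the values was not tested. The labels call the RNA source neuron. The astrocyte markers Aqp4, Slc1a2 and Aldh1l1 were nevertheless counted in every library, with WT means of 122 ± 16.0, 3319 ± 147 and 58.1 ± 4.97 CPM (SD, n = 4), so the libraries held RNA of astrocytes too. In such mixed RNA, fewer astrocytes and less RNA per astrocyte cannot be told apart.

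For 35 of the 37 astrocyte genes no difference between genotypes passed the test. Of 22 homeostatic genes 1 fell in HOM, the water channel gene Aqp4. Of 8 reactive genes 1 fell, the ceruloplasmin gene Cp, and none of the 7 others passed. No member rose. The test was edgeR's quasi-likelihood test with Benjamini-Hochberg adjustment over 17395 genes and a threshold of 0.05, which called 5.4% of all genes, 2.94% lower and 2.47% higher in HOM. The 2 calls among 37 members are thus a share of 5.41%, close to that background. The balance of calls over all genes depended on the setting: upper-quartile scaling gave 355 lower and 539 higher, and a filter at 1 CPM gave 439 and 528, against 511 and 429. At an unadjusted p under 0.05 edgeR put 5 homeostatic genes lower and 1 higher, 1 reactive gene lower and 0 higher, and 1 other gene lower. These 8 of 37 members (21.6%) compare with 22.9% of all genes at that threshold. DESeq2 called 3 homeostatic genes lower (Aqp4, Slc1a2 and Glul), 1 reactive gene lower and 0 members higher. These 4 of 37 members (10.8%) compare with 12.4% of the 14905 genes given an adjusted p by DESeq2.

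The lists were compared by the share of fold changes below 0. The order of homeostatic and reactive genes turned without HOM replicate 1 and held without any other single library. Of the homeostatic genes 16 of 22 had a log2 fold change (HOM minus WT) below 0, with a median of -0.09 and a range from -0.40 to 0.32. Of the reactive genes 4 of 8 lay below 0, with a median of -0.01 and a range from -0.60 to 0.22. The other genes had 6 of 7 below 0 and a median of -0.13. Over all genes tested 49.8% lay below 0, with a median of 0.00. With upper-quartile scaling, 15 of 22 homeostatic, 4 of 8 reactive and 4 of 7 other genes lay below 0, with medians of -0.06, 0.02 and -0.09 against 0.03 for all genes. Without HOM replicate 1, 15 of 22 homeostatic and 6 of 8 reactive genes lay below 0, while the medians kept their order at -0.05 and -0.02. With a choroid plexus covariate the shares were almost equal, at 14 of 22 (63.6%) and 5 of 8 (62.5%), with medians of -0.14 and -0.02. The difference between the lists was not tested, since genes of 1 list are not replicates. Averaged over the homeostatic list, WT libraries had 7.45 ± 0.126 log2 CPM and HOM libraries 7.37 ± 0.0863, and over the reactive list 2.97 ± 0.112 and 2.89 ± 0.0764 (SD, n = 4). The libraries of the genotypes overlapped in both lists.

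**Figure D1:**
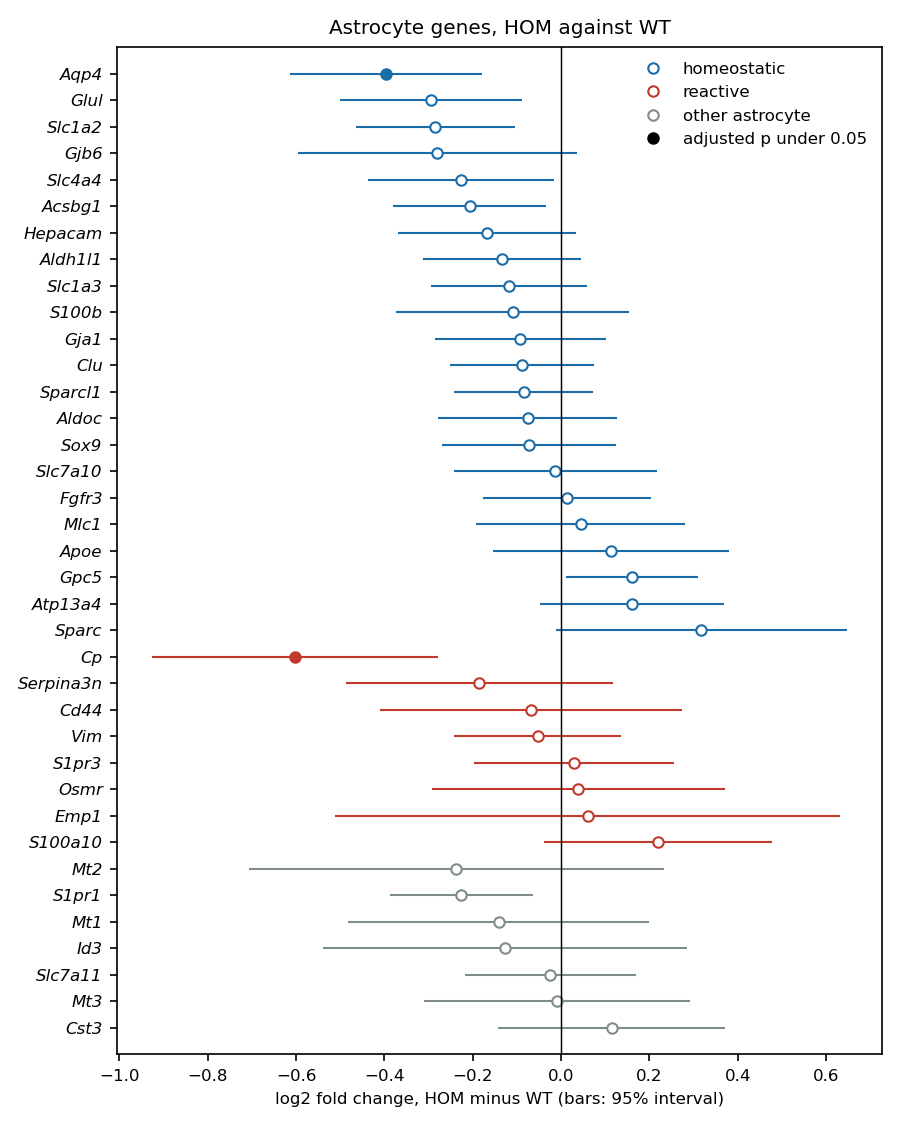
The log2 fold change of each of the 37 tested members (x axis, HOM minus WT) with its 95% interval from the edgeR fit, by list. Filled points passed an adjusted p of 0.05: Aqp4 at -0.40 and Cp at -0.60, and the intervals of Slc1a2, Glul, Slc4a4, Acsbg1, S1pr1 and Gpc5, which did not pass, also leave out 0.

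The homeostatic genes are ordered here by roles assigned after the values were seen, so counts by role only describe these data. The 3 genes of glutamate clearance all had fold changes below 0, and none passed. Below 0 lay 72.7% of the homeostatic list and 49.8% of all genes tested. Slc1a2 encodes GLT-1, the main glutamate transporter of the forebrain, and spans chr2:102658659-102790784 (GRCm38, plus strand). Slc1a2 stood at 3315, 3327, 3497 and 3138 CPM in WT replicates 1 to 4. It stood at 2473, 3127, 2857 and 2439 CPM in HOM replicates 1 to 4. Every HOM library lay below every WT library, HOM replicate 2 only just. The log2 fold change was -0.29 (SE 0.08, 95% interval -0.46 to -0.11; edgeR adjusted p = 0.0639; two-sided exact permutation p = 0.0286, which is as small as 70 relabellings can give). Without HOM replicate 2 the edgeR adjusted p was 0.0230. Such separation of the genotypes was seen for 4 of 37 members, Aqp4, Slc1a2, Cp and S1pr1, all lower in HOM. Over all genes tested it was seen for 14.1%, 7.47% lower and 6.63% higher in HOM.

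Glul, which encodes the glutamine synthetase that converts glutamate taken up by astrocytes, spans chr1:153899944-153909723 (plus strand). Glul stood at 1180, 1435, 1425 and 1509 CPM in WT replicates 1 to 4 and at 948, 1223, 1179 and 1174 CPM in HOM replicates 1 to 4. Only WT replicate 1 lay in the range of the HOM libraries. Its log2 fold change was -0.29 (SE 0.09, edgeR adjusted p = 0.0880). The second transporter gene, Slc1a3 (GLAST), was closer to WT at 551 ± 23.1 and 508 ± 58.9 CPM (SD, n = 4; log2 fold change -0.12, 95% interval -0.30 to 0.06).

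Of 6 genes of endfeet, junctions and ion balance 5 had fold changes below 0, with a median of -0.20. Over the homeostatic list it was 16 of 22, with a median of -0.09. Aqp4 encodes the water channel of the astrocyte endfoot. It stood at 119, 110, 114 and 146 CPM in WT replicates 1 to 4 and at 84.0, 101, 103 and 83.7 CPM in HOM replicates 1 to 4. WT replicate 4 was the highest of the 8 libraries, and the genotypes did not overlap. The mean went from 122 ± 16.0 to 92.8 ± 10.3 CPM (SD, n = 4), a HOM mean at 76.0% of WT. The log2 fold change was -0.40 (SE 0.10, 95% interval -0.61 to -0.18; edgeR adjusted p = 0.0417; two-sided exact permutation p = 0.0286). With 1 library left out the call held without WT replicate 2 (edgeR adjusted p = 0.0374) and HOM replicate 2 (0.0408). It was lost without WT replicate 1, 3 or 4 (0.0700, 0.0828 and 0.0919) and without HOM replicate 1, 3 or 4 (0.149, 0.0783 and 0.0955), at log2 fold changes from -0.44 to -0.30. Upper-quartile scaling ended it as well (0.0541). With both replicates 4 left out its log2 fold change was -0.25 (edgeR adjusted p = 0.145).

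The connexin genes Gja1 and Gjb6, whose products form the gap junctions between astrocytes, did not pass. Gja1 stood at 188 ± 14.9 CPM in WT and 176 ± 20.2 CPM in HOM, and Gjb6 at 61.6 ± 8.66 and 50.7 ± 10.6 CPM (SD, n = 4), with HOM replicate 1 lowest at 35.8 CPM. Mlc1 and Hepacam encode a membrane protein of the endfoot and the adhesion molecule GlialCAM that binds it. Their log2 fold changes were 0.04 (SE 0.11) and -0.17 (SE 0.09). The bicarbonate cotransporter gene Slc4a4 stood at 202 ± 15.7 and 173 ± 24.6 CPM (SD, n = 4; log2 fold change -0.23, edgeR adjusted p = 0.187).

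The genes of metabolism and transport had a median log2 fold change of -0.08 and those of identity and signalling one of -0.07. None of them passed. Aldh1l1, the folate enzyme gene used to mark astrocytes, stood at 50.9, 61.4, 58.5 and 61.4 CPM in WT replicates 1 to 4 and at 48.1, 50.5, 55.6 and 57.5 CPM in HOM replicates 1 to 4. The ranges overlapped (log2 fold change -0.13, SE 0.08, edgeR adjusted p = 0.356). Other annotated genes cover 31.9% of its span, so its count is uncertain. The acyl-CoA synthetase gene Acsbg1 stood at 145 ± 14.2 and 126 ± 8.46 CPM (SD, n = 4; log2 fold change -0.21, edgeR adjusted p = 0.145). Its unadjusted p was 0.0229. The glycolytic gene Aldoc (-0.08), the amino acid transporter gene Slc7a10 (-0.01) and the transport ATPase gene Atp13a4 (0.16) did not pass. Nor did the glial transcription factor gene Sox9 (-0.07), the growth factor receptor gene Fgfr3 (0.01) and the calcium-binding protein gene S100b (-0.11), whose exons lie to 83.0% within another gene. Their 95% intervals stayed between -0.37 and 0.37.

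Genes of secreted and matrix proteins were the homeostatic group with the most fold changes above 0, at 3 of 5. In the whole homeostatic list 6 of 22 lay above 0, and the groups were made after the values were seen. Sparc encodes a secreted protein that opposes synapse formation by its relative, the Sparcl1 product hevin. Sparc stood at 135, 173, 159 and 252 CPM in WT replicates 1 to 4 and at 246, 210, 211 and 228 CPM in HOM replicates 1 to 4. WT replicate 4 lay above all HOM libraries and the other WT libraries below them. The log2 fold change was 0.32 (SE 0.15, edgeR adjusted p = 0.235). Without WT replicate 4 it was 0.53 (adjusted p = 0.0204), and with HOM replicate 4 left out too it was again 0.53 (0.0274). Sparcl1 stood at 1663 ± 111 and 1569 ± 111 CPM (SD, n = 4; log2 fold change -0.08). The lipid carrier genes Apoe and Clu had log2 fold changes of 0.11 (95% interval -0.15 to 0.38) and -0.09 (-0.25 to 0.08). Gpc5, a heparan sulfate proteoglycan gene, stood at 73.2 ± 4.33 and 81.8 ± 5.18 CPM (SD, n = 4; log2 fold change 0.16, edgeR adjusted p = 0.188).

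**Figure D2:**
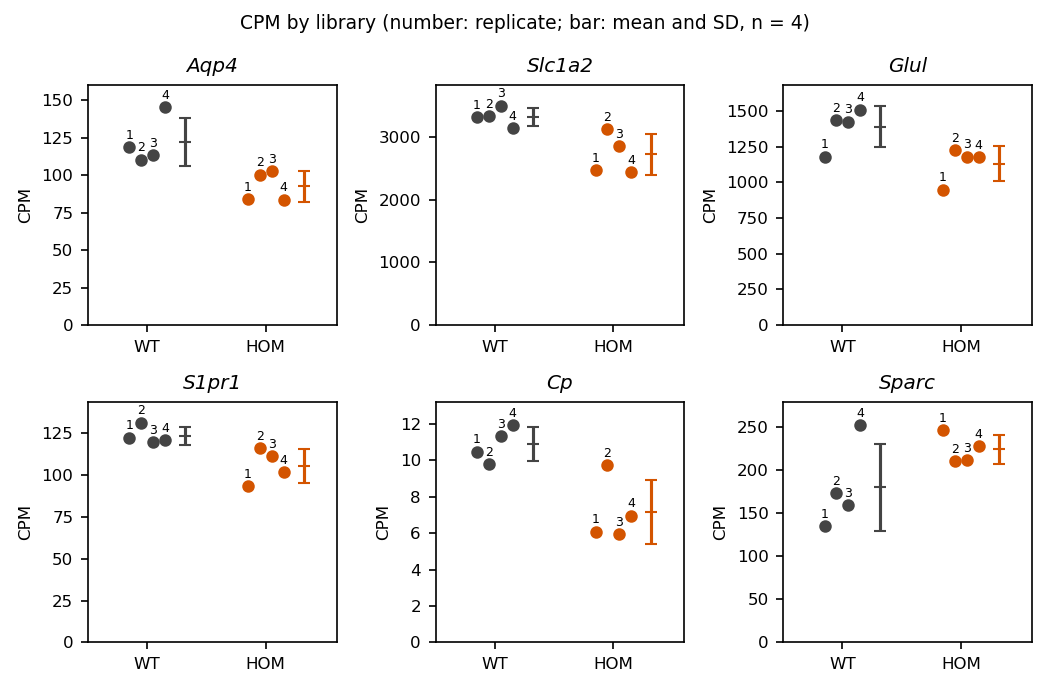
CPM (y axis, from 0) of 6 members in the 4 WT and 4 HOM libraries, each point numbered by replicate, with the mean and SD beside them. The genotypes do not overlap for Aqp4, Slc1a2, S1pr1 and Cp, whereas WT replicate 1 of Glul and WT replicate 4 of Sparc lie among or above the HOM values.

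None of the reactive genes rose in HOM. Per kb of exon, the WT means of the 10 reactive genes ran from 0.0603 CPM (Lcn2) to 12.4 CPM (S100a10), with a median of 1.09 CPM. Those of the 22 homeostatic genes ran from 2.08 CPM (Atp13a4) to 566 CPM (Sparcl1), with a median of 26.9 CPM. The ranges overlapped, since Atp13a4 and Sox9 (7.91 CPM) lay below S100a10. The intermediate filament gene Vim stood at 6.19 CPM on this scale. Reads of introns are likely to be included in these counts, which favours long genes in such a comparison. Gfap, the filament gene most used to mark reactive astrocytes, lies inside the span of the gene Gm26668. It stood at 0 in every library, as did 1258 of 1263 protein-coding genes nested in another gene, so it has no measured value.

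Cp encodes ceruloplasmin, a copper-carrying ferroxidase that astrocytes hold at their surface, and spans chr3:19957054-20009145 (plus strand), with 25.3% of its span shared with Hps3. Cp stood at 10.5, 9.79, 11.3 and 11.9 CPM in WT replicates 1 to 4 and at 6.09, 9.73, 5.95 and 6.98 CPM in HOM replicates 1 to 4. HOM replicate 2 all but reached the lowest WT library, and the other HOM libraries lay well below. The mean went from 10.9 ± 0.935 to 7.19 ± 1.76 CPM (SD, n = 4), or 66.0% of WT. The log2 fold change was -0.60 (SE 0.15, 95% interval -0.93 to -0.28; edgeR adjusted p = 0.0389; two-sided exact permutation p = 0.0286). With 1 library left out the call held without WT replicate 2 (0.0416) and HOM replicate 2 (0.00529). It was lost without WT replicate 1, 3 or 4 (0.0658, 0.104 and 0.0886) and without HOM replicate 1, 3 or 4 (0.132, 0.125 and 0.0795). With both replicates 4 left out the log2 fold change was -0.54 (edgeR adjusted p = 0.131).

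The remaining reactive genes did not pass. Vim stood at 28.4, 30.0, 25.7 and 33.4 CPM in WT replicates 1 to 4 and at 27.1, 27.7, 27.9 and 30.7 CPM in HOM replicates 1 to 4 (log2 fold change -0.05, 95% interval -0.24 to 0.14). The acute-phase serpin gene Serpina3n, among the most inducible genes of reactive astrocytes, stood at 8.33, 7.71, 7.81 and 9.89 CPM in WT replicates 1 to 4 and at 5.56, 8.29, 7.72 and 8.16 CPM in HOM replicates 1 to 4 (log2 fold change -0.19, 95% interval -0.49 to 0.12). The hyaluronan receptor gene Cd44 (-0.07), the oncostatin M receptor gene Osmr (0.04), the sphingosine phosphate receptor gene S1pr3 (0.03, with 71.0% of its span shared) and the membrane protein gene Emp1 (0.06) lay near 0. The highest fold change was that of S100a10, which encodes the annexin A2 partner p11. S100a10 stood at 13.5, 14.5, 14.5 and 17.5 CPM in WT replicates 1 to 4 and at 18.5, 14.8, 15.7 and 20.7 CPM in HOM replicates 1 to 4, with overlap (log2 fold change 0.22, 95% interval -0.04 to 0.48, edgeR adjusted p = 0.293). The upper ends of the 8 intervals reached at most 0.63, that of Emp1, so a log2 fold change of 1 lay above every one of them. Below the filter, the iron-binding lipocalin gene Lcn2 had 11, 1, 4 and 5 counts in WT replicates 1 to 4 and 10, 3, 0 and 3 counts in HOM replicates 1 to 4. The metalloreductase gene Steap4 had 4 to 15 counts in WT and 5 to 11 in HOM. Neither gene entered the main edgeR test, and a small difference could not be seen at such counts.

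Among the 7 other genes, S1pr1 separated the genotypes without passing. S1pr1 encodes a sphingosine phosphate receptor of astrocytes and endothelium and stood at 122, 131, 120 and 121 CPM in WT replicates 1 to 4 and at 93.3, 116, 112 and 102 CPM in HOM replicates 1 to 4. The log2 fold change was -0.23 (SE 0.07, edgeR adjusted p = 0.0943). The cystine transporter gene Slc7a11 (-0.02), the transcription regulator gene Id3 (-0.13) and the protease inhibitor gene Cst3 (0.11) did not pass either. Cst3 stood at 608 ± 91.0 CPM in WT and 658 ± 98.1 CPM in HOM (SD, n = 4).

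The metallothionein genes encode small zinc- and copper-binding proteins. Mt1 and Mt2 are induced by metals, glucocorticoids and inflammation, whereas Mt3 is a brain form with little induction by metals. Mt1 stood at 120, 160, 163 and 215 CPM in WT replicates 1 to 4 and at 116, 162, 145 and 173 CPM in HOM replicates 1 to 4. Mt2 stood at 41.1, 72.1, 77.5 and 97.6 CPM in WT replicates 1 to 4 and at 45.1, 58.3, 65.2 and 75.8 CPM in HOM replicates 1 to 4. Both were lowest in replicate 1 and highest in replicate 4 of each genotype. Mt3 followed this only in HOM, at 106 CPM in replicate 1 and 175 CPM in replicate 4. None passed, at log2 fold changes of -0.14, -0.24 and -0.01. Reads shared between such close relatives are uncertain, and the gene Gm45774 covers 82.8% of the span of Mt2.

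The promoter windows of these 3 genes are shown because Mt1 and Mt2 varied together over the libraries. They run from 250 bases before to 50 after the annotated start, from RefSeq on GRCm38.p6, all on the plus strand: chr8:94178839-94179138 for Mt1, chr8:94172368-94172667 for Mt2 and chr8:94152357-94152656 for Mt3. Capitals mark matches on either strand to TGCGCNC or TGCACNC, the forms of the core of the metal response element, which MTF-1 binds. The matches do not overlap each other.
Mt1: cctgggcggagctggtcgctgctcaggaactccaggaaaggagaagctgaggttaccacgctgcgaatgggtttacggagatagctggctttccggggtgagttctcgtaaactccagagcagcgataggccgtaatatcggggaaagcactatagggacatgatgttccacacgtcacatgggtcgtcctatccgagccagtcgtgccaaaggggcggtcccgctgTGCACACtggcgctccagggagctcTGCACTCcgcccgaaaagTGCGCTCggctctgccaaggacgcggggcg
Mt2: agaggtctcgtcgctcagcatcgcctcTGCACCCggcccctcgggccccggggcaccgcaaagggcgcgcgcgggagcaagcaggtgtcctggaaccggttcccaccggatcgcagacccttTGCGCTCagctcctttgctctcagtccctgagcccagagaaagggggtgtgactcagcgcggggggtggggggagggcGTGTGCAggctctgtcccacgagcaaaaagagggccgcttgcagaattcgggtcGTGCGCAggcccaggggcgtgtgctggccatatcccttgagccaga
Mt3: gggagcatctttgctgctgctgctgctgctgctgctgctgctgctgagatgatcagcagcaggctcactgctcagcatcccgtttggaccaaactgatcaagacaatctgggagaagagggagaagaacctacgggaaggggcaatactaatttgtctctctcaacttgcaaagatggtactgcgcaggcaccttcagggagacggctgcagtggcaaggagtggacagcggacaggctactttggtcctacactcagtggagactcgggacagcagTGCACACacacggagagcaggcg
Mt1 had 3 matches, Mt2 4 and Mt3 1. Relative to the annotated start, those of Mt1 lay at -23, 2 and 20 and those of Mt2 at -223, -128, -50 and 4. That of Mt3 lay at 27, and positive values lie after the start. Of 32851 promoter windows of 300 bases, 25.7% held at least 1 match, 1.97% at least 3 and 0.517% at least 4. A match is a run of letters and not a measured binding site. Any part of these matches in the levels of Mt1 and Mt2 was not tested. Their order over the libraries was also not particular to them: WT replicate 4 was the highest WT library for 23 of 37 members. HOM replicate 1 was the lowest HOM library for 21.

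The members also differed between libraries of 1 genotype, many of them in the same libraries. WT replicate 4 was the highest WT library for 23 of 37 members (62.2%, against 25.0% of all genes tested) and WT replicate 1 the lowest for 22 (59.5%, against 28.1%). In HOM, replicate 1 was the lowest for 21 (56.8%, against 20.5%) and replicate 4 the highest for 16 (43.2%, against 32.6%). The mean log2 CPM of the homeostatic list was 7.29 in WT replicate 1 and 7.60 in WT replicate 4, a gap wider than that between the genotype means. In HOM it was 7.24 in replicate 1 and between 7.40 and 7.42 in the other libraries.

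**Figure D3:**
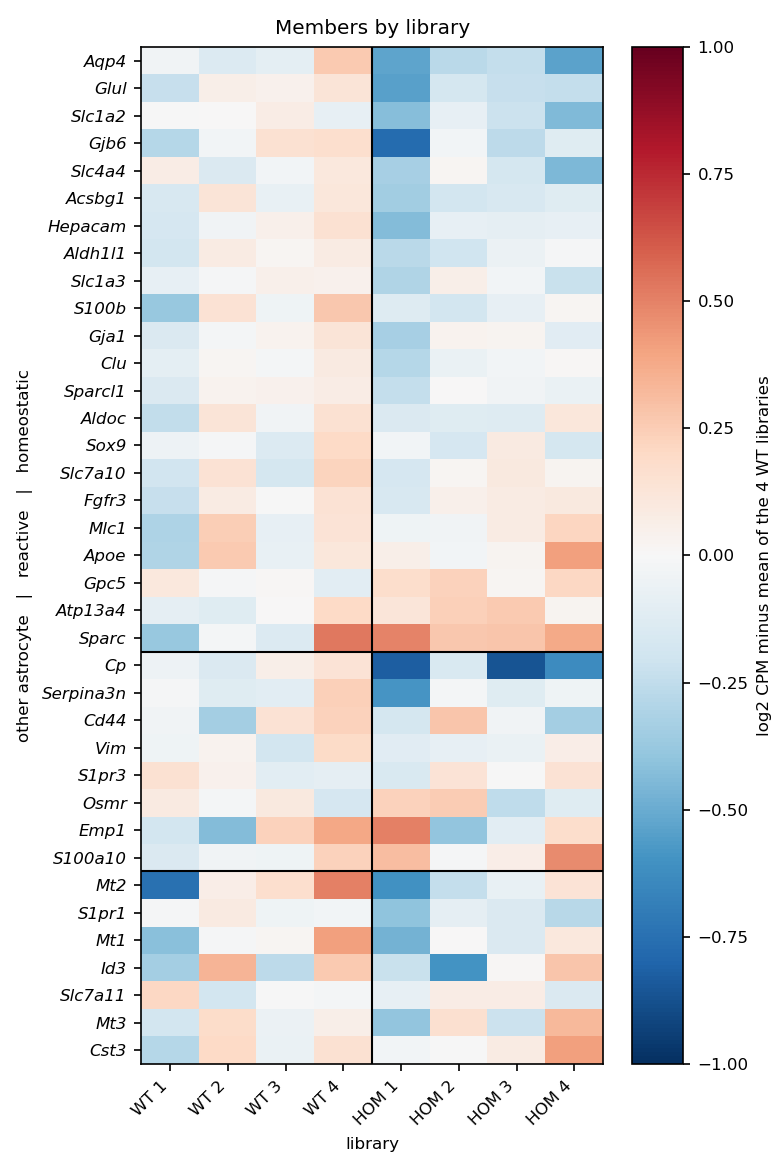
Each row is 1 of 37 members and each column 1 library. Colour gives log2 CPM minus the mean of the 4 WT libraries, from -1 (blue) to 1 (red), and lines part the genotypes and the lists. WT replicate 4 is mostly red, WT replicate 1 and HOM replicate 1 mostly blue, and the rows of Aqp4 and Cp are blue across HOM. Other rows, such as those of Slc1a2, Glul and S1pr1, also lie below the WT mean in every HOM library.

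Other astrocyte genes came from lists drawn up beside the members, with earlier results of these data known. Of 36 further homeostatic genes tested 4 fell (11.1%, against 2.94% of all genes) and none rose (against 2.47%). Their median log2 fold change was -0.03, with 15 above 0. The 4 included Dio2, the deiodinase gene that makes active thyroid hormone in astrocytes, at 75.9 ± 9.62 CPM in WT against 48.9 ± 8.09 CPM for HOM (SD, n = 4, with a log2 fold change of -0.63 and an edgeR adjusted p = 0.0145). Slco1c1, a thyroxine transporter gene of astrocytes and brain vessels, fell by 0.41, the Kir4.1 potassium channel gene Kcnj10 by 0.43 and the BMP antagonist gene Chrdl1 by 0.39 on the log2 scale (edgeR adjusted p = 0.0172, 0.0369 and 0.0391). Ntsr2 stood at 103 ± 11.3 and 109 ± 11.2 CPM (SD, n = 4). Dio2 was lost without WT replicate 3 or HOM replicate 1 or 3 (edgeR adjusted p = 0.0547, 0.0597 and 0.0586) and Slco1c1 without HOM replicate 3 (0.0785) and without both replicates 4 (0.0560). Kcnj10 passed with 1 library out when that was replicate 2 of WT or HOM, and not otherwise, nor without both replicates 4 (-0.28, adjusted p = 0.134). Chrdl1 passed when it was WT replicate 4 or HOM replicate 2, and not otherwise, and it was lost with upper-quartile scaling (0.0523) and without both replicates 4 (0.0594).

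Of 28 further reactive genes tested 2 fell (7.14%, against 2.94% of all genes) and 1 rose (against 2.47%), with a median of -0.11. The complement gene C4b rose. It stood at 19.0, 18.3, 19.9 and 29.7 CPM in WT replicates 1 to 4 and at 34.8, 32.3, 33.6 and 38.0 CPM in HOM replicates 1 to 4. All HOM libraries exceeded all WT libraries (log2 fold change 0.68, SE 0.14, edgeR adjusted p = 0.0196). Reads shared with its close copy C4a make the count uncertain. C4b did not pass with WT replicate 3 left out (0.0734), nor with replicate 1 or 3 of HOM left out (0.0609 and 0.0605). The prostaglandin synthase gene Ptgs2, which neurons also induce with activity, fell by 1.26, and the filament gene Nes, also expressed by vessel cells, by 0.60 on the log2 scale. The edgeR adjusted p was 0.00438 for Ptgs2 and 0.0110 for Nes, and Nes was lost without HOM replicate 3 (0.0559) and without both replicates 4 (0.0513). The transducer gene Stat3 (-0.11) and its target gene Socs3 (-0.02) did not pass.

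Markers of other cell types moved with genotype as well. For the counts that follow, 2.94% of all genes tested were called lower and 2.47% higher in HOM. Of 18 choroid plexus genes 8 fell, with a summed level of 473 to 3003 CPM in WT, highest in replicate 4, and 176 to 487 CPM in HOM. Of 16 endothelial genes 6 fell (sums of 333 to 403 CPM in WT and 263 to 307 CPM in HOM) and of 13 mural and meningeal genes 2 fell (218 to 229 and 164 to 199.5 CPM). Of 12 microglial genes 2 rose, with sums of 382 to 446 CPM in WT and 448 to 488 CPM in HOM. None of 14 oligodendrocyte genes passed, though 14 lay below 0 (median -0.26), and none of 7 ependymal genes did. Of 11 neuronal genes 2 fell (median -0.19). The microglial sums did not overlap, nor did those of endothelial, mural and neuronal genes. Kcnj13 of the choroid plexus list, P2ry12 of the microglial list and Tubb3 of the neuronal list stood at 0 in all libraries and Itgam had 3 counts in all, and each of these lies within or almost within another gene. With the mean level of the choroid plexus markers as a covariate, Aqp4 had a log2 fold change of -0.24 (edgeR adjusted p = 0.542) and Cp one of -0.70 (0.252). None of the 7 further genes named above as fallen or risen passed either (0.0516 to 0.436). The covariate was itself lower in HOM than in WT on average, with overlap, so its effect and that of genotype cannot be told apart fully. The part of these cell types in the values of Aqp4, Cp, S1pr1, Sparc and C4b was not tested beyond that.

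**Figure D4:**
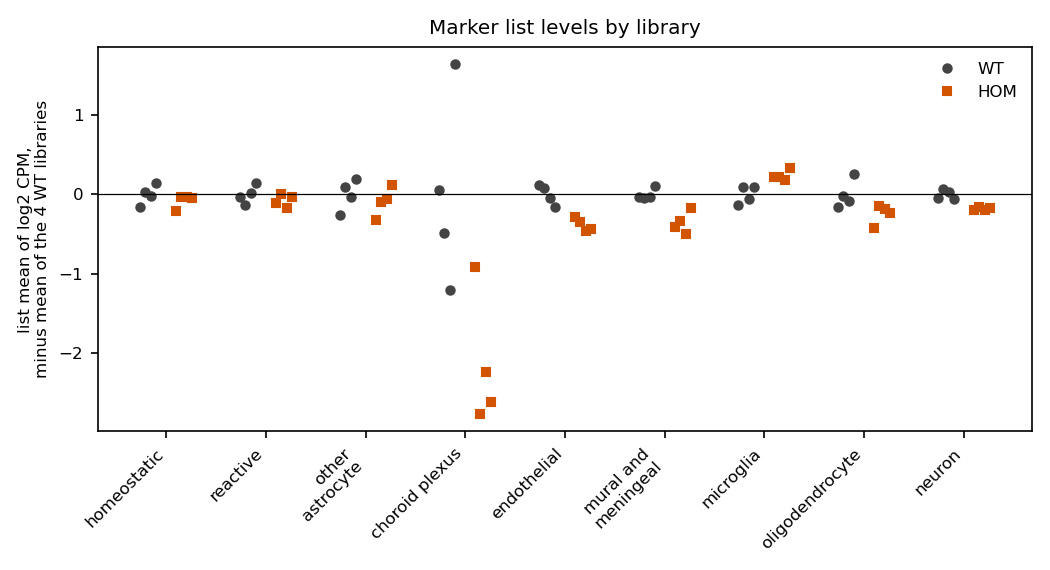
For each gene list (x axis), the mean log2 CPM of its genes in each library minus the mean of the 4 WT libraries (y axis), with WT as circles and HOM as squares. The astrocyte lists overlap between genotypes, whereas the endothelial, mural and neuronal lists lie lower and the microglial list higher in all 4 HOM libraries.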

How the data were processed

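RNA-seq was compared between 4 WT and 4 HOM samples. The values the authors deposited are raw counts of reads for each Ensembl gene, whole numbers with no scaling. The submitters' processing notes name FastQC (0.11.3), STAR, featureCounts, edgeR and the build GRCm38. The annotation and strand setting were not given in the sources used here, and the kit was stranded per the labels' protocols. Symbols and positions came from GENCODE M21, which held 54409 of 54446 identifiers; the other 37 carried 0.0143% of the counts. Nested genes stood at 0, so the counts are taken to cover whole gene bodies with shared reads dropped.

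Counts were tested with edgeR 4.0.16 (glmQLFit, glmQLFTest) in R 4.3.3 on TMM-scaled libraries after filterByExpr at its defaults (about 10 counts in 4 libraries). Benjamini-Hochberg adjustment covered 17395 genes, with a threshold of 0.05. The 95% intervals came from the standard error and degrees of freedom of that test. Single genes were compared by exact two-sided permutation of log2 CPM (prior count 2). The script was tested on simulated data with 200 changed genes and 1 dispersion for all genes. It recovered 56% of changes of 0.5 and 100% of changes of 1 on the log2 scale, and 3.11% of its calls were false. Smaller changes were not simulated. Alternatives used DESeq2 1.42.0, limma 3.58.1, other scalings, filters, a replicate block, a choroid plexus covariate, another sorting of the 7 other genes, and libraries left out.

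The members and all lists were chosen with earlier results of these data known. Named were members past the threshold, the markers, those of smallest p or highest mean, and up to 4 of smallest p from each further list; other members are named to give a value. The roles that order the homeostatic genes were assigned after the values were seen. No 2 libraries of the same genotype agreed within sampling noise (lowest chi-square per degree of freedom 7.09).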

Additional observations from a re-analysis of the deposited data

Results flagged for a closer look

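Chance alone sets a library apart in about 1 in 20 groups of 4, and 3 of the 74 groups of member values tested held a library set apart by Dixon's test. Aldoc stood at 694 CPM in HOM replicate 4, against 580.0 to 591 CPM in the other HOM libraries. Fgfr3 stood at 105 CPM in HOM replicate 1, against 122 to 126 CPM in the others. Hepacam stood at 76.3 CPM in HOM replicate 1, against 96.8 to 97.4 CPM in the others.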

How the results depend on the processing

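With DESeq2, 1073 genes were lower and 774 higher, against 511 and 429 with edgeR, and 3 homeostatic members were lower, while 1 further homeostatic gene was higher and 4 further reactive genes lower. Upper-quartile scaling left 0 homeostatic members lower. The replicate block gave 195 lower and 169 higher genes, 0 homeostatic and 0 reactive members lower and 2 further homeostatic genes lower; under it Aqp4, Cp, Kcnj10 and Chrdl1 had adjusted p of 0.0948, 0.0682, 0.0709 and 0.0644. Same-numbered samples correlated at 0.14, -0.61, 0.06 and 0.10 in their deviations from the group means. The highest correlations were of unlike numbers, 0.55 for WT replicate 2 with HOM replicate 4 and 0.50 for WT replicate 1 with HOM replicate 2. These values cannot show whether same-numbered samples shared a batch. The choroid plexus covariate gave 27 lower and 9 higher genes, and 0 homeostatic, 0 reactive, 0 further homeostatic and 0 further reactive genes in either direction. Without WT replicate 4 and HOM replicate 4 together, 200 genes were lower and 135 higher, with 0 homeostatic members lower and 1 higher, 0 reactive members lower, 1 further homeostatic and 1 further reactive gene lower. With 1 library left out, 89 to 649 genes were lower and 67 to 538 higher. Homeostatic members lower numbered 0 to 2 and higher 0 to 1, and reactive members lower 0 to 1. Further homeostatic genes lower numbered 0 to 4 and higher 0 to 1, and further reactive genes lower 1 to 3 and higher 0 to 1. The cause of these changes was not tested. Fits with libraries left out also had fewer samples, and the part of that was not tested either. List medians moved by less than the spread between libraries in all settings run. Counting Slc7a11, Mt1, Mt2 and Id3 as reactive and S1pr1, Mt3 and Cst3 as homeostatic changed no count of called genes, since none of them had passed. It brought the medians closer, at -0.09 for homeostatic and -0.06 for reactive genes, against -0.09 and -0.01. Slc7a11, Mt1, Mt2 and Id3 each lay below 0, so the share of reactive genes below 0 rose. A prior count of 0.5 changed no side of the permutation tests. Depth limits Lcn2 and Steap4.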

Other observations

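Of 14 members under 10 kb, 0 lay above their genotype mean in WT replicate 1 and 13 in WT replicate 4, and 2 in HOM replicate 1 and 12 in HOM replicate 4. Their median deviations in log2 CPM were -0.24, 0.19, -0.12 and 0.21. Over all 3210 protein-coding genes of that span they were -0.12, 0.05, -0.02 and 0.15. Of 11 members over 50 kb, 10 lay above the genotype mean in HOM replicate 2 and 3 in HOM replicate 4, with medians of 0.18 and -0.13, against 0.06 and -0.09 over 4584 protein-coding genes of that span. The signs differed in some other libraries. The medians of members and of all such genes were -0.03 and 0.07 in WT replicate 1, 0.08 and -0.03 in WT replicate 4. They were -0.11 and 0.01 in HOM replicate 1. The signs agreed in WT replicate 2 (-0.02 and -0.07), WT replicate 3 (0.02 and 0.04) and HOM replicate 3 (0.06 and 0.02).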
